A study of Mus musculus with 2 samples.

Results

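The p63-KO cycling epithelial cells of the mouse esophagus at E18.5 were 185 of the 1848 Epcam-positive cells of the p63-KO library, out of 8209 kept cells in both libraries. They were chosen by their own counts. A p63-KO cell was kept if it had at least 500 genes, at least 1000 UMIs (unique molecular identifiers, each standing for 1 captured transcript) and at most 10% mitochondrial UMIs, and if at least 1 UMI came from Epcam, an adhesion protein of epithelia. The sum of Mki67, Top2a, Cenpf and Ube2c then had to reach 3 CP10K (UMIs of a gene for each 10000 UMIs of its cell), with Chgb, a neuroendocrine granule protein, under 5 CP10K and Foxi1, the ionocyte transcription factor, under 1 CP10K. They were set against the 1663 other Epcam-positive p63-KO cells, and against 755 wild-type cycling cells, in which Mki67, Top2a, Nusap1 and Ube2c summed to at least 10 CP10K. The wild-type limit is the stricter one, so the p63-KO rule was also applied as it stands to the wild-type library, where 1327 of 5459 Epcam-positive cells met it.

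The series compared esophageal epithelium of p63-KO embryos with that of wild-type embryos, all of strain C57BL/6, by droplet sequencing of 3′ transcript ends, with 1 library for each genotype. Embryos of the p63-KO library are labelled p63-CreER/p63-CreER, with the CreER recombinase gene on both copies of the p63 locus. The library titled wild type is labelled p63-CreER, so its cells carry that allele too, and no group lacks it. The sources used here give neither the number and sex of the embryos pooled nor the part of the locus that the allele changes. With 1 library for each genotype there was no replicate and no test between genotypes, and any difference between the libraries cannot be told apart from a difference between 2 preparations.

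p63, encoded by Trp63, is the transcription factor that stratified epithelia need for their basal layer, where the dividing cells of the normal esophagus sit. An esophagus without p63 keeps a simple, columnar, partly ciliated and mucous lining, like that of the early foregut tube. Dividing cells copy their DNA in S phase with licensing factors, polymerases and newly made histones, and then enter mitosis with a second set of genes for the spindle, the kinetochores and cytokinesis. Mki67 coats mitotic chromosomes, Top2a untangles DNA before its strands part, Cenpf sits at kinetochores, and Ube2c is the enzyme that hands ubiquitin to cyclins when mitosis ends.

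Many genes of the mitotic set are known to be repressed in resting cells through the DREAM complex, which binds a promoter element called CHR, and to be induced through NF-Y, which binds CCAAT. Promoters of 4 of the genes that were highest in the p63-KO cycling cells are shown because they hold both. Each runs 5′ to 3′ on the gene's own strand, from 250 bases before to 50 bases after its start (RefSeq, GRCm38.p6, the build also called mm10). Capitals mark CHR (TTTGAA or TTTAAA) and CCAAT on either strand, so that TTCAAA and ATTGG are the same motifs read from the other strand, and adjoining matches run together.
Ube2c, chr2:164769679-164769978, plus strand: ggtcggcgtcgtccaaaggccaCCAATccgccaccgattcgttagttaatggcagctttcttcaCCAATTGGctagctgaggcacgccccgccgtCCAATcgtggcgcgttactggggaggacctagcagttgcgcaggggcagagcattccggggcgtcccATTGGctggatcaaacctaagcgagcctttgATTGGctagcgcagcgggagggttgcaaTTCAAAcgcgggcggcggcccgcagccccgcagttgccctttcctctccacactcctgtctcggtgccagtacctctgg
Top2a, chr11:99024140-99024439, minus strand: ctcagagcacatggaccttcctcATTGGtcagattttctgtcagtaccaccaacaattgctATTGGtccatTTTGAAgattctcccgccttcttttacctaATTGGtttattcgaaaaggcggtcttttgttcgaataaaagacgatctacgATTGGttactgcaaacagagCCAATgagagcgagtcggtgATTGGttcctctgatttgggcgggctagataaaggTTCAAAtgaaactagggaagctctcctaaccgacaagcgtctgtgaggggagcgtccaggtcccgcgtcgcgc
Cenpf, chr1:189688037-189688336, minus strand: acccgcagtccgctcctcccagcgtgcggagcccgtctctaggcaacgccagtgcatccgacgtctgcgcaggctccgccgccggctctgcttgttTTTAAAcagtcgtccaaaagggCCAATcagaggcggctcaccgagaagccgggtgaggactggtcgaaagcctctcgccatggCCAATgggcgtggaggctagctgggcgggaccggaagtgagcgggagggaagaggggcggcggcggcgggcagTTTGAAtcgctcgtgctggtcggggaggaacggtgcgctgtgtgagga
Ccnb1, chr13:100786437-100786736, minus strand: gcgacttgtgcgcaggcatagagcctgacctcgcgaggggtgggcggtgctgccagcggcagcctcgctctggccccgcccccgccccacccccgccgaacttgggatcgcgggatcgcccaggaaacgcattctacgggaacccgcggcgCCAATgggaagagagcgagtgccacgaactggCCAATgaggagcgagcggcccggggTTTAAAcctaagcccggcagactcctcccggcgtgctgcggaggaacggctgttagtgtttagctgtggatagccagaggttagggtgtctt

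The Ube2c window held 6 CCAAT and 1 CHR, the Top2a window 6 CCAAT and 2 CHR, the Cenpf window 2 of each, and the Ccnb1 window 2 CCAAT and 1 CHR. Of the 84 genes in the 3 mitosis lists, 71 had a window. CHR stood in 48 of these 71 (67.6%), against 27.8% of all 27025 windows, and CCAAT in 51 (71.8%), against 37.9%. Both stood together in 37 of the 71 (52.1%), against 10.9% of all windows. In the 2 replication lists, 41 of 54 genes had a window, and an E2F motif (TTTCCCGC or TTTGGCGC, either strand) stood in 13 of them (31.7%), against 1.63% of all windows. CCAAT stood in 25 of these 41 replication windows (61%) and CHR in 10 (24.4%), so CCAAT was not particular to the mitosis lists. The columnar and mucous lists had 37 windows, of which 24.3% held CHR, 27% held CCAAT and 0 held an E2F motif. A match is a string of letters and was not tested as a binding site. The window of Nusap1, another gene of the highest group, held neither CHR nor CCAAT.

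The p63-KO library held 2821 barcodes with 86504624 UMIs and the wild-type library 6034 barcodes with 76472445 UMIs, of which 2422 and 5787 were kept, in that order. The 2 libraries shared 8 barcodes, 1 of them in a p63-KO cycling cell. A p63-KO cycling cell held a median of 58813 UMIs (1530 to 156277) from a median of 8444 genes. Other p63-KO cells held a median of 22502 UMIs and 5510 genes, and wild-type cycling cells a median of 14864 UMIs. The cycling cells were thus the deepest of these groups, and mitochondrial shares were alike, at a median of 4.31% in them and 4.29% in other p63-KO cells. Levels below are CPM, the UMIs of a gene summed over all cells of a group, for each 1000000 UMIs of that group, and intervals are exact 95% intervals that cover counting error only. Log2 ratios were taken after adding 1 CPM, which understates the change of low genes. A gene was called higher or lower where that ratio reached 2-fold, among genes of at least 5 CPM in either group.

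The label of epithelial cells held for 161 of the 185 cells (87%, 81.3 to 91.5%) and went against the data in 24. In those 24, the simple-epithelium keratins Krt7, Krt8, Krt18 and Krt19 summed to at most 9.47 CP10K, while the lowest of the other 161 cells stood at 21.5 CP10K. No cycling cell lay between these values, and the 24 held only 1 to 4 Epcam UMIs each. Fibroblast markers led in 12 of them, with a median of 238 CP10K against 0.964 CP10K in the 161 keratin-positive cells. Smooth muscle markers led in 5 (median 392 CP10K), endothelial markers in 4 (median 50.2 CP10K) and immune markers in 3 (median 131 CP10K). Among other Epcam-positive p63-KO cells the keratin-positive share was 1357 of 1663 (81.6%). How their Epcam UMIs arose was not tested.

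**Figure D1:**
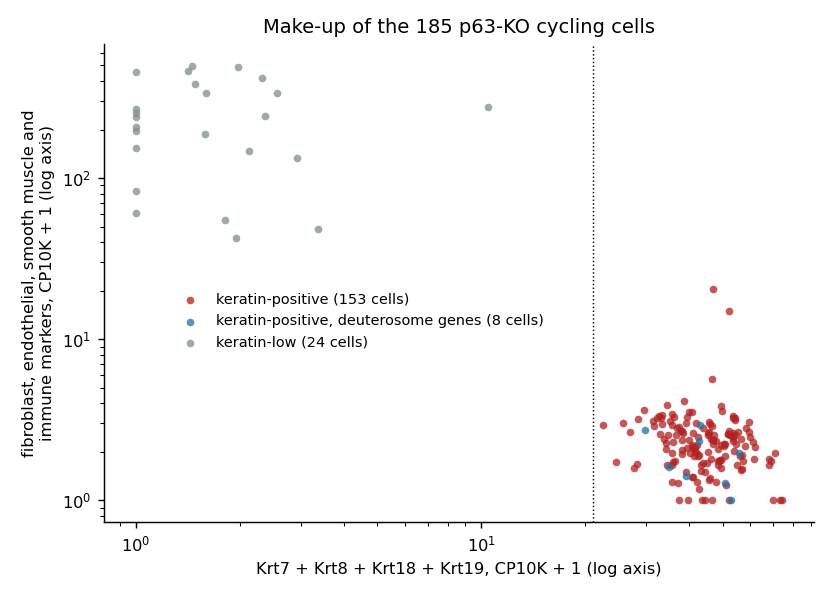
Each point is 1 of the 185 p63-KO cycling cells. The horizontal axis is the sum of 4 simple-epithelium keratins and the vertical axis the sum of fibroblast, endothelial, smooth muscle and immune markers, both in CP10K + 1 on log axes, and the dotted line marks the limit of 20 CP10K. The 24 keratin-low cells lie apart at the upper left and the 161 keratin-positive cells at the lower right, 8 of which carry deuterosome genes.

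The keratin-low cells gave 4.7% of the group's UMIs but much of its stromal RNA. They held 96.3% of the UMIs of Acta2, the smooth muscle actin, 76% of those of Col3a1, a fibrillar collagen, and 97.1% of those of Cdh5, the endothelial cadherin. Of the cycle genes they held 14% of the Mki67 UMIs, 14.6% of the Top2a UMIs, 7.66% of the Ube2c UMIs and 25% of the Hist1h1b UMIs. Trp63 had 1 UMI in all 24 cells together, and the mucous gene Agr2 had 6 UMIs, found in 20.8% of them, at a median of 20385 UMIs per cell. Where these UMIs came from was not tested. The main counts below are therefore also given for the 161 keratin-positive cells.

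Most of the 185 cells stood well above the limit that chose them, with a thin margin near it. The cycle sum had a median of 9.37 CP10K, and its highest value was 49.7 CP10K. The cells just inside had 3.02, 3.06, 3.06, 3.08 and 3.1 CP10K, and those just outside 2.99, 2.9, 2.88, 2.88 and 2.85 CP10K. Between 3 and 4 CP10K lay 28 cells, between 2 and 3 CP10K lay 44 cells that were not kept, and 87 of the 185 reached 10 CP10K. Behind the sum stood a median of 63 UMIs per cell, and fewer than 5 UMIs in 6 cells.

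The 5 genes that name the group were 11.2-fold to 15.8-fold higher in p63-KO cycling cells than in other p63-KO cells. These values describe the choice, since 2 of the genes are in the rule and the other 3 belong to the same program in the same cells. Hist1h1b, the linker histone H1.5 made with DNA replication, stood at 80 CPM in cycling cells, against 5.08 CPM in other p63-KO cells, and had UMIs in 67% and 8.18% of them. Ube2c stood at 327 CPM, against 22.1 CPM in other cells (14.8-fold, 13.9 to 15.7). Nusap1, which bundles spindle microtubules, stood at 105 CPM, against 7.86 CPM (13.4-fold). Cenpf stood at 268 CPM, against 21.2 CPM (12.7-fold, 11.9 to 13.5), and had UMIs in 94.6% of cycling cells, against 17.6% of other cells. Ccna2, the cyclin of S phase and G2, stood at 89.4 CPM, against 8.02 CPM (11.2-fold). All 5 were far apart between the groups.

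In the cycling cells 355 of 11634 measured genes (3.05%) were called higher than in other p63-KO cells and 467 (4.01%) lower, and the median log2 ratio was -0.03. Among the 161 keratin-positive cells, against keratin-positive other cells, the counts were 275 (2.44%) higher and 338 (3%) lower of 11257 genes. The 12 highest genes were mitotic or replication genes, from Ube2c (log2 ratio 3.83) to Ccna2 (log2 ratio 3.33). They also held Ccnb1, the cyclin that starts mitosis, at 75.4 CPM in cycling cells against 5.59 CPM in other cells, and Aurkb, the kinase that corrects spindle attachments, at 57.9 CPM against 4.57 CPM. The spindle proteins Tpx2, Prc1 and Hmmr stood at 98.9, 132 and 53.5 CPM in cycling cells, against 8.7, 12 and 4.38 CPM in other cells. Mki67 was 11.1-fold higher (10.3 to 11.9) and Top2a 11-fold higher (10.4 to 11.7).

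Genes of mitosis had the highest list medians of the cell cycle lists. Of the kinases, cyclins and checkpoint genes, 23 of 25 were called higher and 0 lower (median log2 ratio 2.72). Cdk1, the mitotic kinase, stood at 134 CPM in cycling cells against 16.8 CPM in other cells, Cdc20, which activates the anaphase-promoting complex, at 93.1 CPM against 9.18 CPM, and Plk1, a kinase of mitotic entry, at 41.2 CPM against 3.25 CPM. The 2 genes under 2-fold were Fzr1, the Cdc20 relative that acts late in mitosis and in G1, and Wee1, which holds Cdk1 back, with log2 ratios of 0.80 and 0.95. Of the kinetochore genes, 27 of 29 were called higher (median log2 ratio 2.42), among them Birc5, a partner of Aurkb, at 176 CPM against 17.7 CPM, and Cenpa, the centromeric histone, at 130 CPM against 16.2 CPM. Of the spindle motors and midbody genes, 29 of 30 were called higher (median 2.65). The exception was Ckap2, at 54.6 CPM in cycling cells and 33 CPM in other cells. Restricted to keratin-positive cells, the counts were 22 of 25, 27 of 29 and 27 of 30.

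Genes of DNA replication were called less widely. In the licensing and initiation list, 8 of 20 measured genes were called higher and 0 lower (median log2 ratio 0.81). The helicase subunits Mcm2 and Mcm6 stood at 33.3 and 51.4 CPM in cycling cells, against 24.3 and 32.4 CPM in other cells, both under 2-fold. Dbf4, which activates the replication kinase Cdc7, was the highest of the list at 53.3 CPM against 12.6 CPM. Of the polymerase and fork genes, 9 of 32 were called higher (median 0.82), with the sliding clamp Pcna at 87.3 CPM against 53.2 CPM and the fork protein Clspn at 39.7 CPM against 9.22 CPM. In nucleotide supply, 4 of 21 were called higher (median 0.38), namely Rrm1, Rrm2, Tyms and Tk1, with Rrm2, the S-phase subunit of ribonucleotide reductase, at 53.3 CPM against 10.9 CPM. Of the homologous recombination and Fanconi repair genes, 13 of 23 were called higher (median 1.17). In keratin-positive cells 6 of 20 licensing genes, 7 of 31 polymerase and fork genes, 4 of 21 nucleotide genes and 12 of 23 repair genes were called higher. The rule's 4 genes peak in G2 and mitosis, and what that choice adds to this order was not tested.

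**Figure D2:**
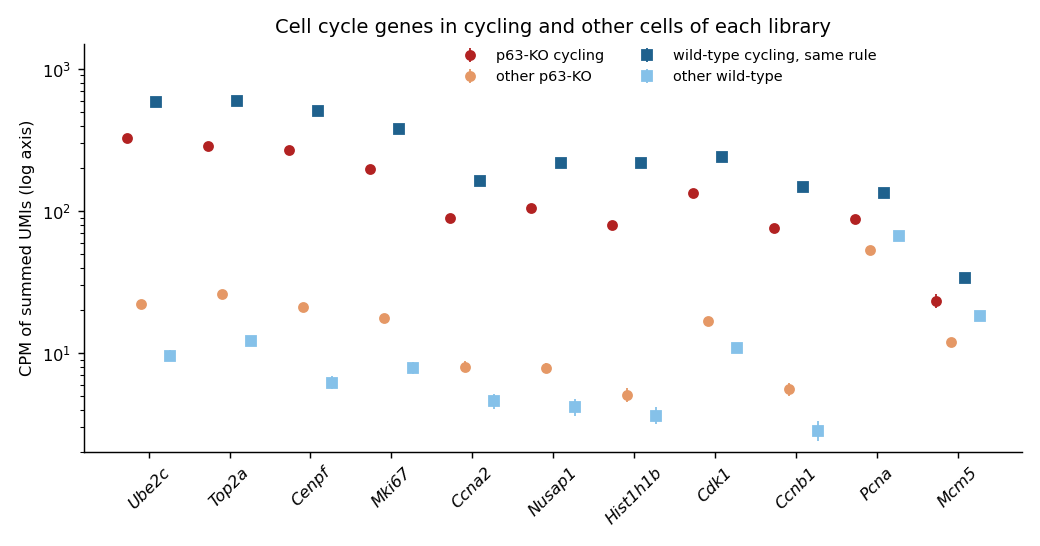
Summed levels (CPM, log axis) of 11 cell cycle genes in p63-KO cycling cells, other p63-KO cells, wild-type cells that meet the p63-KO rule and other wild-type cells, with exact 95% counting intervals. Mki67 stands at 197 CPM in p63-KO cycling cells, 17.8 CPM in other p63-KO cells, 378 CPM in wild-type cells of the same rule and 7.82 CPM in other wild-type cells, while Pcna and Mcm5 differ less between cycling and other cells.

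Histones and chromatin proteins of dividing cells were also higher. Of 15 measured histone-list genes, 9 were called higher (median log2 ratio 1.68) and 0 lower. Most histone messages of S phase have no poly(A) tail, and how completely the kit captured them was not tested. Hist1h1c and Hist1h2bc, whose messages are also made outside S phase, had log2 ratios of 0.33 and -0.01. Of the condensation and chromatin genes, 13 of 19 were called higher (median 1.32), with the DNA-bending protein Hmgb2 at 659 CPM against 155 CPM and the condensin subunit Smc2 at 112 CPM against 21.1 CPM. Among regulators of cell cycle transcription, 6 of 23 were called higher, namely E2f7, E2f8, Rbl1, Mybl1, Mybl2 and Foxm1, the mitotic forkhead factor (21.1 CPM against 5.12 CPM). Myc stood at 5.15 CPM in cycling cells and 5.12 CPM in other p63-KO cells. In keratin-positive cells 9 of 15 histone genes, 12 of 19 chromatin genes and 6 of 23 regulators were called higher.

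Of the G1 cyclins, kinases and inhibitors, 6 of 20 were called higher and 0 lower, in all 185 cells and in the keratin-positive cells alike. The list's high members were the inhibitors Cdkn2c (20.2 CPM against 2.01 CPM in other p63-KO cells) and Cdkn2d (40.8 CPM against 17.1 CPM), the phosphatase Cdkn3 (31.1 CPM against 3.16 CPM) and the cyclin of S-phase entry Ccne1 (17.5 CPM against 6.78 CPM). The D cyclins, which answer growth signals, were close in both groups. Ccnd1 stood at 267 CPM in cycling cells and 233 CPM in other cells, and Ccnd2 at 440 and 518 CPM. Cdkn1a, the p53-induced inhibitor p21, stood at 141 CPM in cycling cells and 122 CPM in other cells. Of 21 genes of the p53 family and its targets, 1 was called higher, near the 3.05% of all measured genes. It was Gtse1, which itself follows the cell cycle.

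The lowest genes were those of neuroendocrine cells, which the rule bars through Chgb. Asic2, an acid-sensing channel, was 29.3-fold lower (5.47 CPM in cycling cells, 160 CPM in other cells), the hormone gene Sst 23.1-fold lower (6.6 and 152 CPM), Chgb 16.9-fold lower (11 and 186 CPM) and Scg2, a granule protein, 11.3-fold lower (13.3 and 150 CPM). All 18 measured neuroendocrine markers were called lower (median log2 ratio -2.81), and all 16 measured among keratin-positive cells (median -2.17). Of 10 measured ionocyte markers, 7 were called lower (median -1.70). The limits on Chgb and Foxi1 chose the cells, so both lists describe that choice.

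The other p63-KO cells were not all resting, because the limits on Chgb and Foxi1 put 43 cells with a cycle sum of at least 3 CP10K among them, 42 barred by Foxi1 and 1 by Chgb. These 43 cells gave 43.7% of the Mki67 UMIs of the other cells, 58.5% of their Ube2c UMIs and 38.4% of their Hist1h1b UMIs. Summed over the 43, Mki67 stood at 237 CPM and Top2a at 294 CPM, close to the 197 and 286 CPM of the cycling cells. Foxi1 stood at 375 CPM and Cftr, the chloride channel of ionocytes, at 296 CPM in them, with a median of 17 Foxi1 UMIs per cell. Of the 181 Epcam-positive cells with Foxi1 of at least 1 CP10K, 42 (23.2%) reached the cycle sum. Without the 43 cells, 368 genes (3.16%) were called higher and 469 (4.03%) lower, and the median log2 ratio of the 3 mitosis lists was 2.94 in place of 2.64.

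A separate group of 8 cells carried the genes of deuterosomes, the bodies on which a differentiating multiciliated cell builds its many centrioles. Such cells are known to leave the cell cycle while switching part of its machinery back on. Deup1, Cdc20b, Ccno and Mcidas together reached at least 2 CP10K in these 8 (4.89 to 36.4 CP10K), which were all keratin-positive. They were 8 of 185 cycling cells (4.32%, 1.89 to 8.34%), against 11 of 1663 other p63-KO cells (0.662%) and 4 of 1327 wild-type cells of the same rule (0.301%). Of the 19 deuterosome-positive p63-KO cells, 8 (42.1%) met the cycling rule. Ccno, a cyclin-like gene, Mcidas, which starts the multiciliated program, and Cdc20b lie side by side on chromosome 13 in mm10 (112987802 to 112990777, 112993845 to 113000394 and 113035111 to 113091195), and Deup1, the deuterosome scaffold, lies on chromosome 9.

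These 8 cells met the rule through Top2a and Cenpf more than through Mki67. Top2a had 1 to 28 UMIs in each of the 8, Cenpf had UMIs in 7, and Mki67 had 0 UMIs in 6. Summed over the 8, Mki67 stood at 35.3 CPM, against 183 CPM in the 153 other keratin-positive cycling cells, and Ube2c at 92.7 CPM against 326 CPM. Top2a stood at 230 CPM against 258 CPM and Cenpf at 230 CPM against 263 CPM, so these 2 differed little. Cdk1 stood at 210 CPM against 119 CPM, Plk4, the kinase that starts a new centriole, at 172 CPM against 22.3 CPM, and Myb, a factor of early multiciliated cells, at 474 CPM against 5.88 CPM. Replication genes were lower as lists but not in every member. The licensing and the polymerase and fork lists had median log2 ratios of -1.24 and -1.23, beside -0.05 over all genes. Pcna stood at 22.1 CPM against 83.9 CPM and Mcm2 at 6.62 CPM (3 UMIs) against 33.5 CPM. Lig1 was alike, at 55.2 CPM against 56 CPM, and Dna2 was higher, at 46.3 CPM against 9.22 CPM. Foxj1, the master factor of motile cilia, stood at 816 CPM against 3.42 CPM, and Rsph1, a part of the cilium, at 766 CPM against 5.62 CPM.

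The 8 cells held most of the UMIs of the genes that chose them, and of Foxj1. They gave 98.1% of the group's Deup1 UMIs, 98.6% of its Mcidas UMIs and 90.2% of its Foxj1 UMIs, but 2.93% of its Top2a UMIs and 0.655% of its Mki67 UMIs. Among all 185 cells, 10 of 19 regulator genes were called higher than in other p63-KO cells, and among the 153 keratin-positive cells without the 8, 2 of 15 were called higher and 2 lower, where 2.25% and 4% of all measured genes were called. Of the ciliated markers, 1 of 20 was called lower in all 185 cells than in other p63-KO cells (median log2 ratio -0.16). In the 153 cells it was 17 of 19 (median -2.15), set against all other keratin-positive p63-KO cells. Deuterosome-positive cells were left out of the cycling side only, so the counts for the 153 cells describe that choice. Other members of the regulator list were less tied to the 8 cells, with 216 UMIs of Rfx3, a factor of ciliary genes, in the 8 and 1079 in the 153 cells. Deup1 had a log2 ratio of 2.12 with them and -0.96 without deuterosome-positive cells in either group.

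Cycling cells made up 10% of the Epcam-positive p63-KO cells (185 of 1848, 8.68 to 11.5%) and 24.3% of the Epcam-positive wild-type cells under the same rule (1327 of 5459, 23.2 to 25.5%). With every cell thinned to 5000 UMIs, the shares were 10.4% (178 of 1712, 8.99 to 11.9%) and 24.6% (1159 of 4704, 23.4 to 25.9%). Of the Epcam-positive cells, 46 p63-KO and 304 wild-type cells were shallower and were left out, and others lost their Epcam UMIs in thinning. Under the wild-type rule, 97 of 1848 p63-KO cells (5.25%) and 707 of 5459 wild-type cells (13%) qualified. Among keratin-positive p63-KO cells 161 of 1518 (10.6%) were cycling, or 12% when thinned. The p63-KO share was the lower one under each of these 3 ways of counting. The thinned rule keeps other cells, since only 125 of the 185 met the rule at both depths. The limits on Chgb and Foxi1, which the wild-type rule lacks, left out 43 p63-KO cells with the cycle sum. Among wild-type cells outside the p63-KO rule, Foxi1 had UMIs in 3 cells and Chgb in 5. These limits thus lower mainly the p63-KO share.

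**Figure D3:**
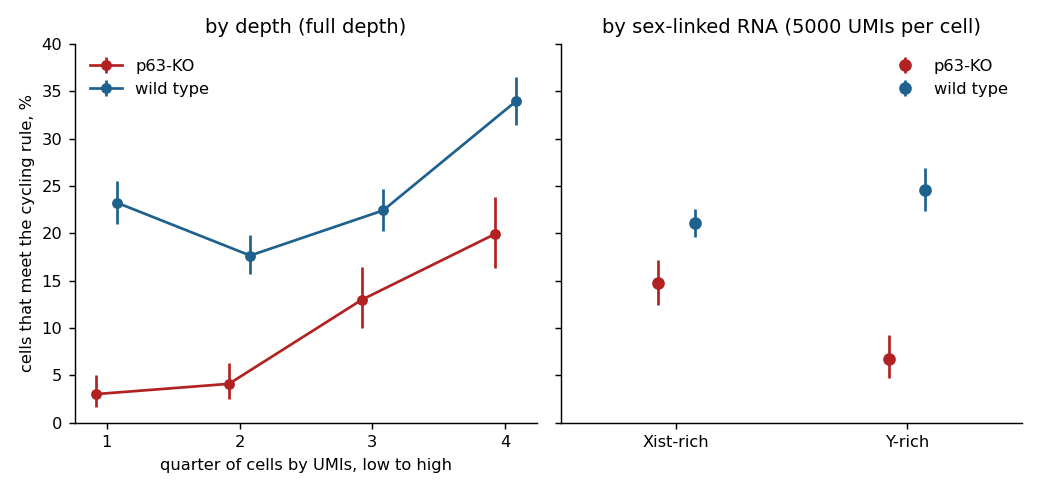
Share of Epcam-positive cells that meet the p63-KO cycling rule (percent, exact 95% intervals), in p63-KO cells in red and wild-type cells in blue, in 4 equal parts of the cells ordered by UMIs (left) and by sex-linked RNA after thinning to 5000 UMIs (right, p63-KO cells keratin-positive). The p63-KO share runs from 3.03% to 19.9% across its depth parts, each below the wild-type part of the same rank. Parts are cut within each library and are not matched in depth. On the right, the p63-KO share is 14.7% in Xist-rich and 6.73% in Y-rich cells.

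The p63-KO share moved with depth. In 4 equal parts of the cells, from shallow to deep, 3.03%, 4.11%, 13% and 19.9% of the p63-KO cells met the rule, against 23.2%, 17.7%, 22.4% and 33.9% of the wild-type cells. The pattern was alike in keratin-positive p63-KO cells (3.16%, 4.74%, 13.7% and 20.8%). Parts were cut within each library and are not matched in depth. The shallowest p63-KO part reached up to 16361 UMIs, while the deepest wild-type part began at 15390 UMIs and the deepest p63-KO part at 58855 UMIs. The part of depth in the p63-KO slope was not tested.

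The share also differed between cells of the p63-KO library that carry Xist, the RNA of the inactive X in females, and those that carry Y-linked RNA. After thinning, 134 of 910 Xist-rich keratin-positive cells met the rule (14.7%, 12.5 to 17.2%), against 34 of 505 Y-rich cells (6.73%, 4.71 to 9.28%). In the wild-type library the shares were 21.1% and 24.5%. At full depth they were 13.2% and 6.25% in p63-KO cells, whose median depths were 33936 and 29610 UMIs, and 22.4% and 26% in wild-type cells. How many embryos stand behind each fraction is not given, so sex and embryo cannot be told apart, and no test was made.

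The lists of epithelial lineage had few calls between cycling and other p63-KO cells, and so had all genes. Over all measured genes 3.05% were called higher and 4.01% lower, so counts this small do not set these lists apart. Of the simple columnar list, 0 of 20 measured genes were called higher and 2 lower (median log2 ratio -0.18), the 2 being Cldn6 and Vil1, a microvillus protein. Krt8 stood at 1254 CPM in cycling cells and 1306 CPM in other cells, Krt18 at 959 and 1027 CPM, and Cldn3, a tight junction protein, at 536 and 610 CPM. In the mucous list 1 of 19 was called lower and 0 higher (median -0.35), the gel-forming mucin Muc5b at 49.5 CPM in cycling cells and 142 CPM in other cells. Agr2, which folds mucins, stood at 534 and 852 CPM, the trefoil peptide Tff2 at 528 and 779 CPM, and Wfdc2, a secreted protease inhibitor, at 3914 and 4305 CPM. The squamous list had 0 called higher and 1 lower of 21 (median -0.23), and the basal list 0 of 21 either way (median 0.03). The Wnt list had 0 of 24 called and the immediate-early list 0 of 20. In keratin-positive cells the columnar, mucous, squamous, basal and immediate-early lists again had 2, 1, 1, 0 and 0 genes called, all of them lower. Over all genes measured there, 2.44% were called higher and 3% lower.

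Markers of other cell types did differ, and most of these differences went with the keratin-low cells. Over all 185 cells 7 of 10 endothelial, 6 of 8 smooth muscle and 5 of 8 immune markers were called higher than in other p63-KO cells, with median log2 ratios of 1.22, 1.15 and 2.18. All measured genes were called higher in 3.05% there. In keratin-positive cells 0 of 1, 0 of 6 and 0 of 2 were called higher, and 5 of the 6 smooth muscle markers were called lower (median -1.29). The shares of all genes were 2.44% higher and 3% lower. The other endothelial and immune markers reached 5 CPM only with keratin-low cells included, so 0 of 1 and 0 of 2 show little. Of the erythroid markers 4 of 4 were called lower over all cells (median -1.46) and 0 of 4 in keratin-positive cells. Of the fibroblast markers 1 of 14 was called lower over all cells and 3 of 11 in keratin-positive cells.

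In the wild-type library the same within-library contrast looked different. Wild-type cells of the same rule, against other wild-type cells, had 561 of 11009 genes called higher (5.1%) and 617 lower (5.6%). Of 27 squamous genes 20 were called lower (median log2 ratio -1.94), of 15 columnar genes 8 (median -1.33) and of 9 mucous genes 7 (median -1.23), against 1 of 21, 2 of 20 and 1 of 19 in the p63-KO library. Krt13, the keratin of the esophageal suprabasal layers, stood at 1976 CPM in p63-KO cycling cells and 2516 CPM in other p63-KO cells, and at 2009 CPM in wild-type cells of the same rule and 8748 CPM in other wild-type cells. The cycling cells of both genotypes thus stood at alike Krt13 levels, and the other cells did not. The mitosis lists ran in 1 direction in both libraries, with median log2 ratios of 2.72, 2.42 and 2.65 in p63-KO cells and 3.97, 3.24 and 4.22 in wild-type cells. Whether the libraries differ by more than 2 preparations would was not tested.

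**Figure D4:**
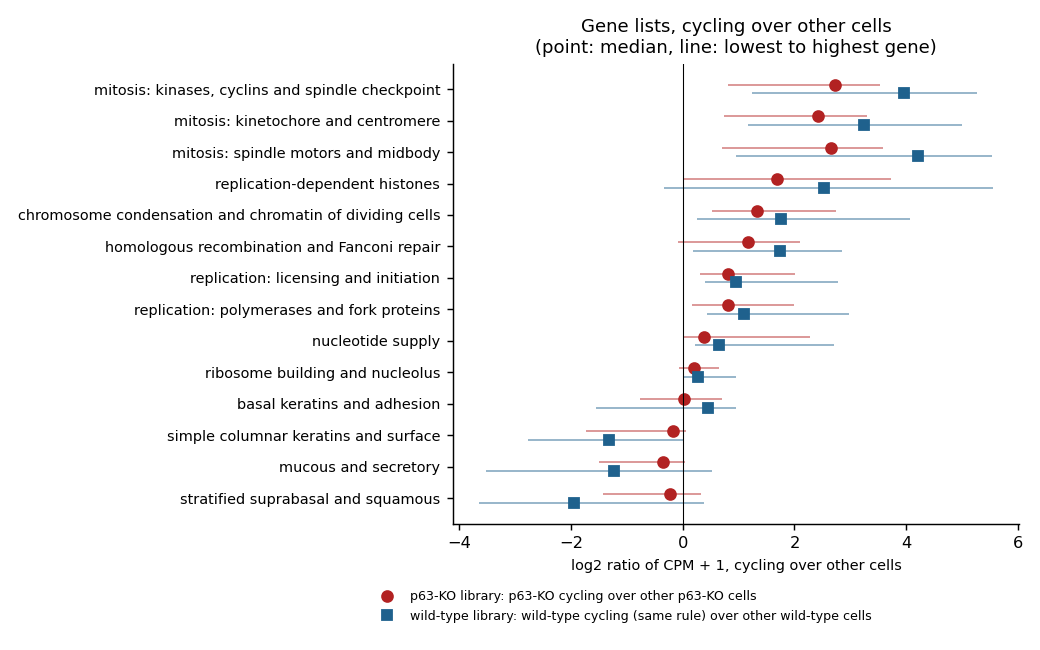
Log2 ratios of cycling over other cells within each library, for 14 gene lists, with the p63-KO library as red circles and the wild-type library (same rule) as blue squares. Points are medians over the measured genes of a list and lines run from its lowest to its highest gene. Squamous genes have a median of -0.23 in p63-KO cells and -1.94 in wild-type cells, while mitosis genes are higher in cycling cells of both.

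Against wild-type cycling cells, p63-KO cycling cells carried the columnar and mucous genes and lacked the basal ones. Among 11681 measured genes, 1860 (15.9%) were called higher and 1173 (10%) lower. With every cell weighing equally the counts were 2278 and 867. Against wild-type cells of the same rule they were 1702 (14.5%) and 1043 (8.91%) of 11702. All 18 measured mucous genes were called higher (median log2 ratio 4.45, and 4.33 against wild-type cells of the same rule). Spink4, a secreted protease inhibitor, had 7638 UMIs in p63-KO cycling cells (615 CPM) and 0 UMIs in wild-type cycling cells, at least 2294-fold higher with 3 counts over the group as the floor. Tff2 had 6557 UMIs (528 CPM) against 0, at least 1970-fold higher. Agr2 stood at 534 CPM against 0.982 CPM (544-fold, 304 to 1090). Creb3l1, a secretory pathway factor, stood at 419 CPM against 0.625 CPM, and the membrane mucins Muc16 and Muc1 stood at 407 and 201 CPM against 1.7 and 0.804 CPM.

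The mucous genes were present in most cycling cells, not in a few. At full depth Spink4 had UMIs in 88.7% and Agr2 in 86.5% of the 185 cells, against 0.151% and 2.04% of the 1327 wild-type cells. Thinned to 5000 UMIs, Agr2 was found in 120 of 180 p63-KO cycling cells (66.7%, 59.3 to 73.5%), against 58.7% of other p63-KO cells and 0.403% of wild-type cells of the same rule. Tff2 was found in 106 of 180 (58.9%), against 49.4% of other p63-KO cells and 0 of 1242 wild-type cells of the same rule. That count allows up to 0.297% of cells with a Tff2 UMI at this depth, and sets no limit on cells that express the gene. In the 161 keratin-positive cells, at full depth, Spink4 had UMIs in 97.5%, against 29.2% of the 24 keratin-low cells.

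Of 18 columnar genes, 15 were called higher than in wild-type cycling cells (median log2 ratio 1.86) and 13 than in wild-type cells of the same rule (median 1.66). Krt8 stood at 1254 CPM in p63-KO cycling cells, 201 CPM in wild-type cycling cells and 250 CPM in wild-type cells of the same rule. Krt18 stood at 959, 37.2 and 50.5 CPM in the same groups, and Cldn3 at 536, 27.9 and 40.6 CPM. Tspan8, a surface tetraspanin, stood at 156, 2.77 and 2.96 CPM. Each was far higher in the p63-KO cells than in either wild-type group. In the keratin-positive cells, against wild-type cells of the same rule, 18 of 18 mucous genes (median 4.39) and 13 of 18 columnar genes (median 1.72) were called higher, where 13.1% of all measured genes were.

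The basal program went the other way. Of 27 basal keratin and adhesion genes, 20 were called lower than in wild-type cycling cells (median log2 ratio -1.71), 19 than in wild-type cells of the same rule, and 1, Cd44, was called higher. Krt5, the type II keratin of basal cells, had 3 UMIs in the 185 cells (0.241 CPM) and 10632 UMIs in wild-type cycling cells (949 CPM), a ratio of 3933-fold lower with a counting interval of 1345 to 19074. Its partner Krt14 stood at 0.885 CPM against 404 CPM (456-fold lower) and the hemidesmosome collagen Col17a1 at 1.21 CPM against 283 CPM (235-fold lower). Krt15, another keratin of basal cells, was high in both, at 4449 CPM against 9226 CPM. Itga6 and Itgb1, integrin chains that hold cells to the basement membrane, stood at 215 and 272 CPM in p63-KO cycling cells and at 110.5 and 280 CPM in wild-type cycling cells. In the keratin-positive cells 18 of 27 basal genes were called lower than in wild-type cells of the same rule (median -1.68), where 10.9% of all measured genes were.

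Trp63 transcripts were counted in the p63-KO cycling cells, at 138 CPM, against 110 CPM in other p63-KO cells and 436 CPM in wild-type cycling cells. The kit reads the 3′ end of the transcript, and the changed part of the gene is not stated, so this count does not check the genotype. Among the other genes named as lowest were Sim2 (0.322 CPM against 168 CPM in wild-type cycling cells), a bHLH factor, the potassium channel Kcnq5 (25.8 CPM against 1491 CPM) and the protease Adamts18 (0 UMIs against 577 UMIs). The urea transporter Slc14a1 was among the highest, at 210 CPM in p63-KO cycling cells against 2 UMIs (0.179 CPM) in wild-type cycling cells. Acta2, Col3a1 and Col1a2 also ranked there, at 295, 263 and 150 CPM, with log2 ratios of 7.43, 7.19 and 6.89 over all 185 cells and 2.85, 5.22 and 4.41 in the keratin-positive cells. Smooth muscle markers were called higher in 7 of 8 measured genes over all cells, and the keratin-low cells held most of those UMIs.

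Squamous genes were mixed between the genotypes. Of 24, 4 were called higher and 10 lower in p63-KO cycling cells (median log2 ratio -0.42), where 15.9% and 10% of all measured genes were. The higher count lies near that background. In the keratin-positive cells, against wild-type cells of the same rule, 4 were called higher and 9 lower. Krt4 and Krt13 stood at 1197 and 1976 CPM, against 1284 and 1611 CPM in wild-type cycling cells, while Krt6a, a keratin of stratified epithelia, stood at 14.7 CPM against 239 CPM. Calml3, a calmodulin of keratinocytes, stood at 7.32 CPM against 138 CPM. Ecm1, a secreted matrix protein, and Mal, a membrane transport protein, were higher, at 103 and 488 CPM against 13.8 and 82.8 CPM.

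Signals and factors of the basal layer differed by gene. Of 30 measured Wnt genes, 4 were called higher, which is near the 15.9% of all genes, and 10 lower, against 10% of all genes, with the ligand Wnt10a at 2.17 CPM against 130 CPM in wild-type cycling cells, the receptor Lgr5 at 1.37 CPM against 81.8 CPM, and the feedback gene Axin2 at 12.6 CPM against 2.5 CPM. The Notch ligand Jag2 stood at 8.05 CPM against 75.2 CPM. The receptors Fgfr2 and Egfr stood at 250 and 71.5 CPM against 770 and 236 CPM, while the EGF-family ligand Hbegf stood at 195 CPM against 23.1 CPM. Of 26 Hedgehog, BMP and TGF-beta genes, 7 were called higher and 9 lower. In the keratin-positive cells, against wild-type cells of the same rule, the counts were 4 higher and 12 lower of 31 Wnt genes, and 4 higher and 9 lower of 23 Hedgehog, BMP and TGF-beta genes. Sox2, a factor of the esophageal foregut, stood at 163 CPM against 274 CPM and Foxe1 at 7.4 CPM against 159 CPM. Myc stood at 5.15 CPM against 21.1 CPM, and Ccnd1 at 267 CPM against 128 CPM.

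Immediate-early genes, which tissue dissociation is known to induce, differed between the libraries, where genotype and preparation cannot be told apart. Of 20, 15 were called higher in p63-KO cycling cells than in wild-type cycling cells (median log2 ratio 1.59) and 0 lower, against 15.9% and 10% of all genes. Fos stood at 1729 CPM against 298 CPM. The count was also 15 of 20 in keratin-positive cells against wild-type cells of the same rule, against 13.1% of all genes. Fos stood at 1768 CPM in other p63-KO cells, so the 2 p63-KO groups were alike. The part of dissociation in the difference between the libraries was not tested. Of the erythroid markers, 4 of 4 measured were called lower in p63-KO cycling cells than in wild-type cycling cells (median log2 ratio -1.83), and in the wild-type library 4 of 4 were called higher in cells of the same rule than in other cells. The wild-type rule asks for no Epcam UMI, which 707 of the 755 wild-type cycling cells had.

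Levels of cell cycle genes in p63-KO cycling cells lay below those of wild-type cycling cells, under the unequal limits of 3 and 10 CP10K. They also did under the same rule in both libraries, where 4 of 25 mitotic kinases and cyclins, 14 of 29 kinetochore genes and 12 of 30 spindle genes were called lower, with median log2 ratios of -0.82, -0.99 and -0.95. Cdk1 stood at 134 CPM in p63-KO cycling cells against 241 CPM in wild-type cells of the same rule, Cdc20 at 93.1 CPM against 206 CPM and Birc5 at 176 CPM against 346 CPM. Of the licensing genes 4 of 21 and of the polymerase genes 7 of 32 were called lower (medians -0.70 and -0.76, against -0.48 and -0.65 under the unequal limits), with Pcna at 87.3 CPM against 133 CPM. The histone list had 13 of 21 called lower and 1 higher. In the 161 keratin-positive cells the mitosis counts were 10 of 25, 23 of 29 and 16 of 30, where 10.9% of all measured genes were called lower and 13.1% higher, so the keratin-low cells raised the p63-KO levels. The median log2 ratio of all genes was -0.11 in this comparison, and the wild-type cells of the same rule had a median depth of 12894 UMIs. The part of depth in these differences was not tested.

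Per cell, at 5000 UMIs, p63-KO cycling cells held less mitotic RNA than wild-type cells of the same rule. The 83 mitosis genes outside both rules summed to a median of 50 CP10K in 180 p63-KO cycling cells, against 82 CP10K in 1242 wild-type cells of the same rule, and 8 CP10K in other p63-KO cells. The 58 S-phase genes summed to a median of 17 CP10K, against 22 and 6 CP10K in the same groups. The 23 keratin-low cells deep enough to thin stood highest, at medians of 138 CP10K for mitosis and 42 CP10K for S phase, and the 157 keratin-positive cells at 46 and 16 CP10K. The distributions overlapped, with 25% of p63-KO cycling cells above 84.5 CP10K in the mitosis sum.

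**Figure D5:**
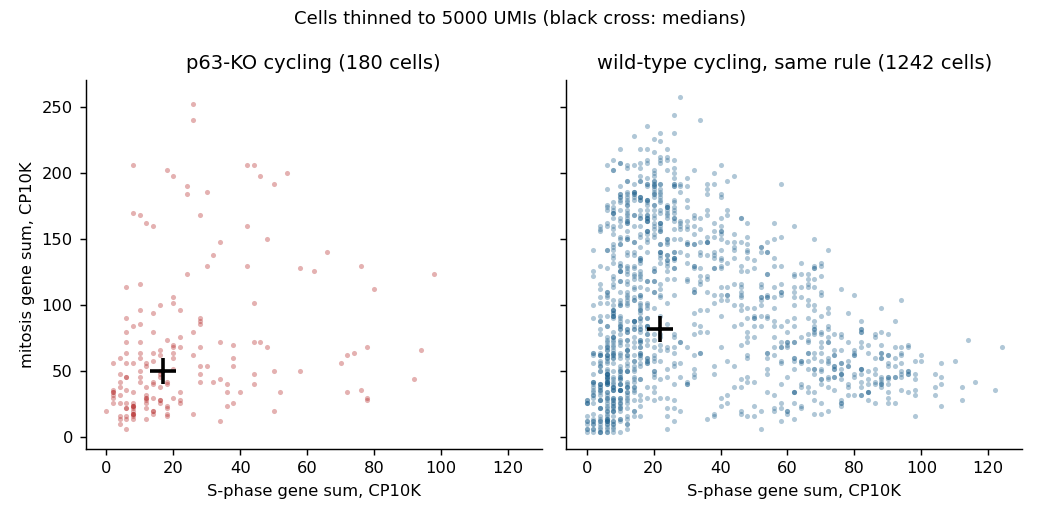
Each point is 1 cell thinned to 5000 UMIs, with its sum of 58 S-phase genes (horizontal, CP10K) and of 83 mitosis genes (vertical, CP10K), for p63-KO cycling cells (left) and wild-type cells that meet the same rule (right). Crosses mark the medians, 17 and 50 CP10K in p63-KO cells and 22 and 82 CP10K in wild-type cells.

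Sorted by a limit of 20 CP10K in each sum, 46.1% of p63-KO cycling cells (83 of 180, 38.7 to 53.7%) passed in mitosis genes alone, against 41.1% of wild-type cells of the same rule. Both sums passed in 44.4% (37.1 to 52%) of p63-KO cells, against 52.8% of wild-type cells, and S-phase genes alone in 1.11% (2 cells) against 1.29%. Neither passed in 8.33%, against 4.83%. These classes are ranges of a sum, not measured phases. Over all 180 p63-KO cells, keratin-low cells included, the counting intervals of the 2 groups overlapped in each class. The wild-type interval for both sums was 50 to 55.6%. Cells of 1 library per genotype are not replicates, and no test was made. In keratin-positive cells mitosis genes alone passed in 50.3% (42.2 to 58.4%) and both in 39.5% (31.8 to 47.6%). For both sums that interval lay below the wild-type one, without overlap.

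Along 4 lineage lists the cycling share was highest away from both ends, with a low end that moved with thinning. Epcam-positive p63-KO cells with Chgb under 5 and Foxi1 under 1 CP10K, keratin-low cells included, were ordered by the thinned sum of a list. They were cut into 4 equal parts. By the columnar list, 8.11%, 20%, 12.2% and 5.69% of the cells from low to high met the rule, by the mucous list 6.22%, 18.4%, 15.2% and 6.23%, and by the squamous list 2.97%, 19.7%, 15.7% and 7.59%. By the basal list they were 4.05%, 20.3%, 16.3% and 5.42%. In each of these 4 the share was highest in the second part, while by the Wnt list it was 7.3%, 13.5%, 10.8% and 14.4%. At full depth the second part was again highest by the 4 lists, but the lowest parts held more cycling cells. These stood at 15.1%, 11.9%, 8.73% and 10.9% by the columnar, mucous, squamous and basal lists. By the columnar list the full-depth shares were 15.1%, 19.3%, 10.9% and 3.71%. What the keratin-low cells add to the low ends was not tested. In the wild-type library the squamous list gave 31.9%, 35.4%, 19.9% and 2.72%, highest in the low parts and lowest at the high end. Depth before thinning differed between the parts, with medians of 16283, 42789, 43700 and 26712 UMIs by the columnar list, and its part in the pattern was not tested.

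The ratio of p63-KO to wild-type levels was compared between cycling and other cells, among 8356 genes of at least 20 CPM in 1 of the 4 sums. It was at least 2-fold higher in cycling cells for 450 genes (5.39%) and at least 2-fold lower for 378 (4.52%). With keratin-positive p63-KO cells in both sums the counts were 427 and 304. Of 23 squamous genes 19 were called higher in this sense and 0 lower (median difference of log2 ratios 1.83), and of 16 columnar genes 8 and 0. A gene could pass the 20 CPM limit through other wild-type cells alone. Within the wild-type library, 20 of 27 squamous and 11 of 15 columnar genes were called lower in wild-type cycling than in other cells. The counts here largely restate that contrast and are no separate result. Mal stood at 488 CPM in p63-KO cycling cells, 82.8 CPM in wild-type cycling cells, 550 CPM in other p63-KO cells and 1147 CPM in other wild-type cells, a difference of 3.60. Ltf, a secreted iron-binding protein, stood at 229, 2.23, 307 and 40.5 CPM in the same order (difference 3.26), and Msln, a surface protein, at 478, 6.97, 508 and 74.4 CPM (difference 3.16). The cornified envelope genes Csta1 and Cnfn and the uroplakin Upk3a ranked with them (3.17, 3.16 and 3.09) although their p63-KO levels were low. In each of these genes the wild-type cycling cells stood far below other wild-type cells, and the 2 p63-KO groups stood close together.

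The lowest differences were neuroendocrine genes, which the Chgb limit keeps out of the cycling group. Asic2, Sst, Chgb and Scg2 had differences of -4.47, -4.34, -4.09 and -3.26, and all 15 measured neuroendocrine markers were called lower. Nlgn1, a synaptic adhesion gene, had a difference of -3.15. It stood at 24.6 CPM in p63-KO cycling cells, 169 CPM in wild-type cycling cells, 195 CPM in other p63-KO cells and 146 CPM in other wild-type cells.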

How the data were processed

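The deposited matrices hold whole UMI counts per gene and barcode, made with Cell Ranger 7.1.0 on mm10 per the submitters' processing notes and the file headers. The epithelium was freed from muscle with forceps and digested with dispase and then trypsin, per the labels' protocols. The sources used here give no annotation release, cell calling or intron setting. From these counts cells were filtered, and the UMIs of each group were summed and scaled to CPM (Python 3.11.15, numpy 2.4.6, scipy 1.17.1, pandas 2.3.3). Log2 ratios used 1 CPM as pseudocount. Folds without pseudocount carry exact conditional binomial intervals, levels exact Poisson intervals and shares Clopper-Pearson intervals. They cover counting error only. With 1 library per genotype no p-value was computed. Genes were measured from 5 CPM in either group, or 20 CPM in 1 of 4 sums for the comparison of ratios, and called from 2-fold.

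Named genes are the 12 highest and 12 lowest by log2 ratio with at least 50 CPM in 1 group and UMIs in at least 10% of its cells, and 6 each way from 100 CPM for the comparison of ratios. Mitochondrial, ribosomal, haemoglobin and sex-linked genes and models without a name were left out of that choice. Other wild-type cells were the Epcam-positive cells outside the cycling group. From each gene list the members with the largest ratios or at least 300 CPM were eligible, and other list members were named for their roles after their values were seen. The members and the lists were chosen with earlier results of these data known. A keratin limit of 20 CP10K and a deuterosome limit of 2 CP10K were set after seeing the data. Doublets were not removed. A score from simulated doublets was an alternative, which found 48 of 100 planted doublets in p63-KO cells and 42 of 100 in wild-type cells. Tested on simulated counts of 32285 genes, the procedure recovered 200 of 200 changed genes in each of the 2 comparisons. The planted changes all exceeded the 2-fold limit, in genes above the 5 CPM limit, so full recovery was near certain by construction. The simulation held no mixed cell types and no library effect, so it checks the calculation and not the calls above. Xist-rich cells had Xist of at least 3 CP10K and Y-linked genes under 0.5 CP10K, and Y-rich cells had Y-linked genes of at least 1 CP10K and Xist under 3 CP10K. The series was otherwise used whole, with 0 columns left out. Some genes that the naming rule selects are not reported here.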

Additional observations from a re-analysis of the deposited data

Results flagged for a closer look

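Signal of the cell cycle also stood in p63-KO cells outside every comparison above. Of the 574 kept p63-KO cells without an Epcam UMI, 58 reached 3 CP10K in the sum of Mki67, Top2a, Cenpf and Ube2c (10.1%, 7.76 to 12.9%, exact interval for counting error only), against 185 of 1848 Epcam-positive cells kept by the full rule (10%). Of these Epcam-negative cells, 451 were rich in collagen RNA (at least 20 CP10K), and 26 of them reached the sum (5.77%, 3.8 to 8.33%).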

How the results depend on the processing

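Of 132 settings of the share and the gene counts, 107 stayed within the interval of the share or within 1.5 times the count. The share of cycling cells, 10% as reported, was 6.44% with a cycle sum of at least 6 CP10K, 4.6% without cells of at least 3 UMIs of other cell types (46 cycling cells left), and 3.28% in cells with a Y-linked and no Xist UMI (13 cells left). In the Xist-rich and Y-rich cells, chosen after seeing the data, it was 12.4% and 5.61%. Against other p63-KO cells, the 355 genes called higher became 234 with the rule applied at 5000 UMIs, 641 without cells of other-type UMIs, 1188 in Y-linked cells, 207 from 20 CPM and 617 with every cell weighing equally. The 467 called lower became 728 at a mitochondrial limit of 5%, 1151, 1368, 219 and 887 under the last 4 of those settings, and 299 with a pseudocount of 5 CPM. Against wild-type cycling cells, the 1860 called higher became 1034 from 20 CPM. In the comparison of ratios, the 450 called higher became 740 in Y-linked cells, 904 from 1 CPM and 279 from 50 CPM. The 378 called lower became 651 without cells of other-type UMIs, 838 in Y-linked cells, 934 from 1 CPM, 189 from 50 CPM and 189 with the wild-type rule in both libraries. The Y-linked and other-type settings left few cycling cells, and the CPM settings changed the number of genes measured. What moved the counts was not tested in any setting. The log2 ratio of Deup1 over other p63-KO cells, 2.12 as reported, was -0.96 without deuterosome-positive cells, and that of Acta2, 1.48, was -0.10 at a mitochondrial limit of 5%, -2.43 with the rule at 5000 UMIs and -1.16 in keratin-positive cells. The median log2 ratio of the mitosis lists over other p63-KO cells, 2.64, ranged between 1.995 and 3.33 over all settings. No paired analysis was possible because each genotype had 1 library, and for the same reason no replicate could be left out. Depth limits genes under about 5 CPM and, in the 8 deuterosome-positive cells, most genes.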

Other observations

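Counts for growth genes in cycling over other p63-KO cells lay near those of all genes. Of 27 genes of ribosome building and the nucleolus, 0 were called higher or lower (median log2 ratio 0.20). Of all measured genes 3.05% were called higher and 4.01% lower. Against wild-type cycling cells 0 were called higher and 3 lower (median -0.42), beside a median of -0.09 over all genes. There, 15.9% of all measured genes were called higher and 10% lower, so the lower count lies near background. Among 30 foregut and lineage transcription factors measured, 2 were called lower in cycling than in other p63-KO cells and 0 higher. These counts also lie near the shares of all genes. The 2 were Hoxb5 (1.21 CPM in cycling cells, 9.41 CPM in other cells) and Isl1 (0.563 CPM and 6.05 CPM). Foxa1 and Pax9 stood at 107 and 152 CPM in cycling cells and at 107 and 151 CPM in other p63-KO cells, while Foxa2 stood at 36.4 CPM against 51.6 CPM. These are levels and counts over 1 library, with no replicate.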
